A study of Mus musculus with 12 samples.

Results

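The 30 genes described here mark T cells and natural killer (NK) cells, and they were followed in whole kidneys of mouse models of X-linked Alport syndrome, in which a type IV collagen chain of the glomerular basement membrane is faulty. The genes were chosen by symbol, with earlier results of these data known. All 30 were found once each among the 55487 genes of the deposited table. Messenger RNA was sequenced from 12 kidneys, 6 from male mice fed a diet with fisetin (500 ppm), a flavonol found in fruit, and 6 from male mice fed a control diet. Every mouse was of the B6 background and 30 weeks old, and the labels name Col4a5 for every library of both diets. The genotype field reads HET throughout, which conflicts with male mice and an X-linked gene, so the state of the allele is not resolved here. Each of the 2 batches in the labels held 3 libraries of each diet, and total counts per library were between 16310214 and 24451821. Whether the 12 libraries are 12 separate animals is not in the labels, and the p-values therefore describe the spread among libraries, which may be partly technical. No kidney without the disease was used, and kidneys of both diets held the markers of kidney tissue, with summed CPM (counts scaled to a common effective library size) of 5 proximal tubule genes between 6451 and 18755 with fisetin and between 10244 and 20919 with the control diet.

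T cells recognise antigen through a receptor that signals by way of the CD3 chains, and the kinases LCK and ZAP70 carry that signal to the adaptor LAT. CD4 marks helper and regulatory T cells, CD8 marks killer T cells, and NK cells kill by the same granzymes and perforin without an antigen receptor. In diseased kidneys such cells gather in the tissue between the tubules, while the epithelium that makes up most of the organ carries few of these messages.

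The starts of the CD3 genes and of a pair of contrasting genes are shown because the CD3 genes lie together and their levels moved together between kidneys. Cd3g, Cd3d and Cd3e, which encode the gamma, delta and epsilon chains, lie on chromosome 9 (GRCm38), and Cd3g and Cd3d point away from each other with 1355 bases between their starts. The start of Cd3e lies 27825 bases from that of Cd3d. Il7r, on chromosome 15, encodes the receptor for interleukin 7, and Gzmb, on chromosome 14, encodes granzyme B. The 250 bases before the RefSeq start (GRCm38.p6) are given 5′ to 3′ on the strand of the gene, at chr9:44980432-44980681 (minus strand) for Cd3g, chr9:44981536-44981785 (plus strand) for Cd3d, chr9:45009612-45009861 (minus strand) for Cd3e, chr15:9529877-9530126 (minus strand) for Il7r and chr14:56262335-56262584 (minus strand) for Gzmb. Capitals mark matches to any of 5 motifs searched on both strands, AGGAAG for ETS factors, TGTGGT for RUNX factors, CTTTGAT for TCF and LEF factors, GGTGTGA for T-box factors and GTAAACA for forkhead factors.
Cd3g: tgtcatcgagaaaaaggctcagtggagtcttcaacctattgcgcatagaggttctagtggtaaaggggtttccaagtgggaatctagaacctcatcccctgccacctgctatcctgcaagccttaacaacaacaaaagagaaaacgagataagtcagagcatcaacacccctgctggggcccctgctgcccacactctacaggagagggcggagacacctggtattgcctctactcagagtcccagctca
Cd3d: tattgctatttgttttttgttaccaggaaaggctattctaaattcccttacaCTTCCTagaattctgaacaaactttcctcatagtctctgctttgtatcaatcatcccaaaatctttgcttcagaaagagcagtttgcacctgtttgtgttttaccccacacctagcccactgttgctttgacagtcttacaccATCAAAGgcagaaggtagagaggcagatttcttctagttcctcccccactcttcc
Cd3e: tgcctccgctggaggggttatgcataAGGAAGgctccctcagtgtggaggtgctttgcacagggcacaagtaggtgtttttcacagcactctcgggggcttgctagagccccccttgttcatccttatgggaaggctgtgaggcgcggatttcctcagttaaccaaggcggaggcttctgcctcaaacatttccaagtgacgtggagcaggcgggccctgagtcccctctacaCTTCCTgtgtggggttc
Il7r: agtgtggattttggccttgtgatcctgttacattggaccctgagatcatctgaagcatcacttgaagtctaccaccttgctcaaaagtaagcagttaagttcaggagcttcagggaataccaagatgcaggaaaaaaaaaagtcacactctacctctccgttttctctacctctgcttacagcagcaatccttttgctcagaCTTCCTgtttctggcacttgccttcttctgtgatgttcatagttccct
Gzmb: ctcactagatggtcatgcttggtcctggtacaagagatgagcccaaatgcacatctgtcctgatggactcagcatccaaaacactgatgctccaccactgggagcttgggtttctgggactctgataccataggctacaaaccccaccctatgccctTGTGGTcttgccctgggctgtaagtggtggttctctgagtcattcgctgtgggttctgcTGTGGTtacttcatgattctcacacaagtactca

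A window of this length was found for 24 of the 30 genes, the one nearest to the annotated gene start where a gene had several. The ETS letters were in 14 of the 24 windows, against 29.5% of 32851 windows of all genes, and the RUNX letters were in 7, against 14% of all windows. The TCF and LEF letters were in 1 window, that of Cd3d (3.21% of all windows), the T-box letters were in 2, those of Gzmk and Nkg7 (3.33%), and the forkhead letters were in 0 (3.17%). These are matches of letters and show no binding. The windows of Cd3d, Cd3e and Il7r each held the ETS letters, that of Cd3g held none of the 5 motifs, and that of Gzmb held the RUNX letters at 2 places.

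Most messages of this group were scarce. On the TPM scale, which divides by transcript length and so lets genes be compared within a library, the median over the 12 kidneys was highest for Nkg7, a granule protein of cytotoxic cells, at 3.67 TPM, followed by Cd3e at 3.59, Lck at 3.31, Lat at 2.93 and Cd3g at 2.78 TPM. The ranges of these 5 genes over the kidneys overlapped, for example 1.68 to 7.89 TPM for Nkg7 and 2.01 to 9.37 TPM for Cd3e. Cd4 had a median of 2.34 TPM and Cd8a, the alpha chain of CD8, 1.40 TPM. At the low end stood Eomes (0.27 TPM), Gzmb (0.24), Gzma (0.24), Prf1 (0.23), Ncr1 (0.15) and Klrb1c (0.13 TPM). Ncr1 and Klrb1c, which encode the NK cell receptors NKp46 and NK1.1, were thus the least abundant of the 30 messages.

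Of the 30 genes, 26 passed the filter on low counts and were tested, together with 17890 genes in all, by edgeR's quasi-likelihood test with batch as a covariate and Benjamini-Hochberg adjustment over all genes tested. Gzma, Gzmb, Klrb1c and Ncr1 did not pass. Some of the others passed with few libraries at the filter's level of about 0.5 CPM, such as Gzmk with 4 fisetin and 2 control libraries, Prf1 with 5 and 3, and Eomes with 6 and 4. None of the 26 passed an adjusted p of 0.05, and neither did any other gene (0% of genes tested), where the smallest adjusted p among the 26 was 0.281. By DESeq2 the adjusted p was also above 0.05 for the 24 genes given one, against 0.954% of all genes below it; 12 genes had an unadjusted p under 0.05 there, against 8.68% of all genes on the higher side. Without adjustment, 9 of the 26 had p under 0.05 and were higher with fisetin, which is 34.6% against 8.23% of all genes tested, and 0 were lower, against 6.34%.

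The 26 fold changes pointed one way. All 26 had a positive log2 fold change (fisetin over control), where 50.2% of all genes tested did, and their median was 0.72 with a range of 0.48 to 1.25, against a median of 0.00 (0.000798) over all genes. Of all genes tested, 2.06% had a log2 fold change at or above that median. These genes mark the same few cell types and share their kidneys, so their common sign is not 26 separate observations. They were also chosen with earlier results of these data known, so these shares are descriptive only. In bulk tissue the number of T cells and the message made per T cell cannot be told apart. With no filter on low counts, the median over all 30 genes was 0.66, 29 of the 30 were positive, 7 had an unadjusted p under 0.05 (5.66% of all genes did on the higher side) and 0 an adjusted one.

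**Figure D1:**
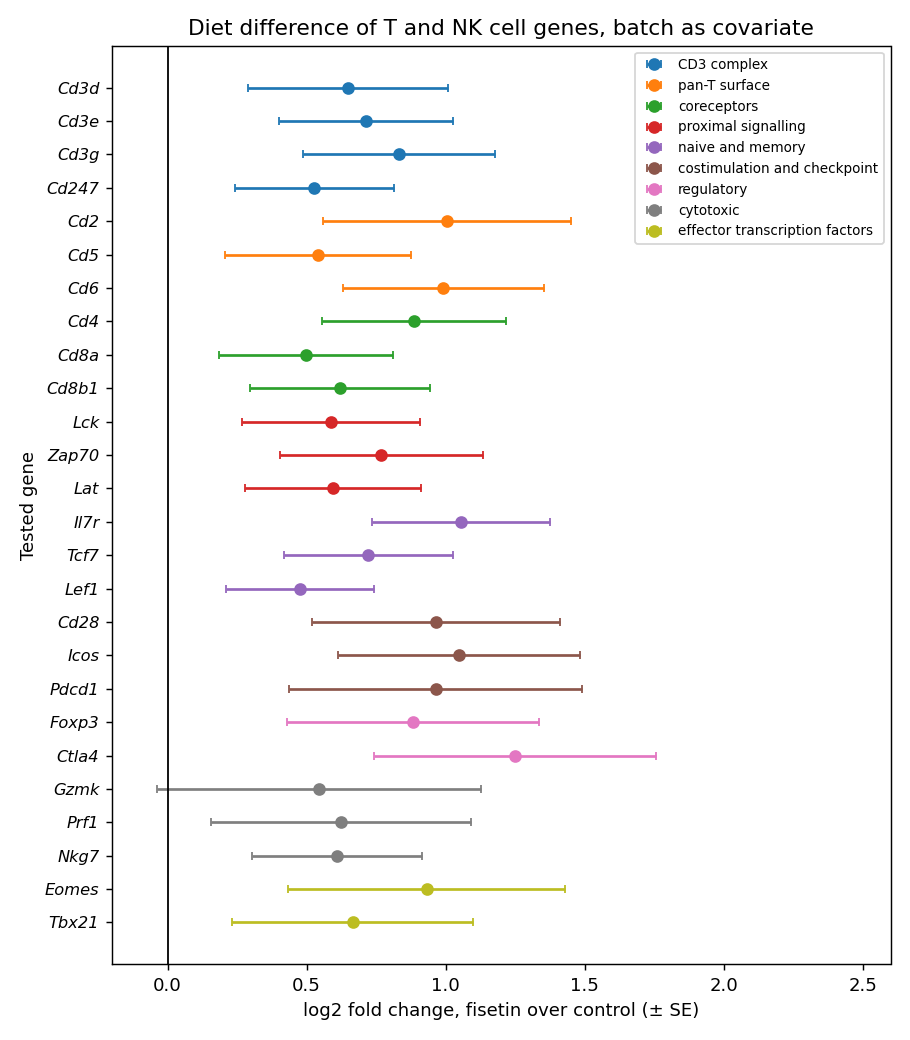
The log2 fold change, fisetin over control, is plotted on the horizontal axis for the 26 tested genes, coloured by role. Bars are 1 SE, derived from the F statistic of edgeR's test. Every point lies right of 0, from 0.48 for Lef1 to 1.25 for Ctla4, and the bar of Gzmk crosses 0.

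The CD3 chains, which signal for the T cell receptor, were taken as a broad measure of T cell message. Cd3e (chromosome 9, 44998740 to 45009627) had a lowest, median and highest level of 4.47, 9.19 and 14.5 CPM in the fisetin kidneys, and 4.07, 5.37 and 11.1 CPM in the control kidneys. The groups overlapped, since fisetin 6 lay among the control kidneys and control 1 among the fisetin kidneys. Its mean was 9.86 ± 4.02 CPM with fisetin and 6.06 ± 2.56 CPM with the control diet (SD, n = 6 each). The log2 fold change was 0.71 ± 0.31 (SE), with an edgeR adjusted p of 0.33. Cd3g (chromosome 9, 44969572 to 44980431) had 2.07, 5.20 and 8.44 CPM as its lowest, median and highest fisetin values and 1.61, 2.62 and 5.96 CPM as those of the control kidneys, with a log2 fold change of 0.83 ± 0.35. Cd3d had a log2 fold change of 0.65 ± 0.36, and Cd247, which encodes the zeta chain, one of 0.53 ± 0.28. Of the exon bases of Cd247, 3007 of 5329 lie opposite exons of Pou2f1, and the use of strand in the counting is not given in the sources used here, so its count is uncertain.

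Surface molecules shared by T cells followed. Cd2, an adhesion receptor also found on NK cells, had 1.31, 3.91 and 7.96 CPM (lowest, median, highest) with fisetin and 0.97, 1.87 and 4.70 CPM with the control diet, and a log2 fold change of 1.00 ± 0.45. For Cd6, an adhesion receptor that binds ALCAM, the values were 2.94, 6.83 and 10.46 CPM with fisetin and 1.86, 2.95 and 7.49 CPM with the control diet, with a log2 fold change of 0.99 ± 0.36 and an edgeR adjusted p of 0.303. Cd5, which dampens receptor signalling, had 1.69, 4.98 and 8.83 CPM against 2.61, 3.10 and 5.54 CPM in control kidneys, and its lowest fisetin value, that of fisetin 6, was below every control kidney. Its log2 fold change was 0.54 ± 0.33.

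The coreceptors tell helper and regulatory T cells from killer T cells, and the difference between the fold changes of their genes was not tested. Cd4 (chromosome 6, 124864692 to 124888221) had 5.51, 11.5 and 23.3 CPM as its lowest, median and highest level with fisetin, and 4.62, 6.81 and 12.5 CPM with the control diet. Its mean was 13.1 ± 6.21 CPM in fisetin kidneys and 7.22 ± 2.81 CPM in control kidneys (SD, n = 6 each). This gave 0.89 ± 0.33 as the log2 fold change, with an edgeR adjusted p of 0.303. Some mouse dendritic cells also carry Cd4, and some carry Cd8a. Cd8a had 3.27, 7.21 and 9.46 CPM with fisetin and 2.65, 4.80 and 7.40 CPM with the control diet, with a log2 fold change of 0.50 ± 0.31 and an adjusted p of 0.436. Here control 4, not control 1, was the highest control kidney. Cd8b1, the beta chain, had a log2 fold change of 0.62 ± 0.32. The ratio of Cd4 to Cd8a in CPM was 1.32 to 2.78 in fisetin kidneys (median 1.84) and 0.70 to 2.79 in control kidneys (median 1.54), so the control range covered the fisetin range.

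Proximal signalling genes came next. Lck, the kinase that phosphorylates the CD3 chains, had 4.69, 8.30 and 16.0 CPM with fisetin and 4.62, 5.49 and 12.6 CPM with the control diet (lowest, median, highest), a log2 fold change of 0.59 ± 0.32. Its ratio to Cd3e varied little between kidneys, from 0.85 to 1.10 with fisetin and from 0.91 to 1.14 with the control diet. Zap70 and Lat had log2 fold changes of 0.77 ± 0.36 and 0.59 ± 0.32, and 0 of these 3 genes had an unadjusted p under 0.05.

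Genes of naive and memory T cells included the one with the smallest p of the 26. Il7r, whose receptor keeps resting T cells alive and is also carried by innate lymphoid cells, had 4.09, 7.98 and 14.2 CPM in fisetin kidneys and 2.21, 4.20 and 8.18 CPM in control kidneys. Its mean was 8.77 ± 3.80 CPM with fisetin and 4.38 ± 2.08 CPM with the control diet (SD, n = 6 each), and 5 of 6 fisetin kidneys lay above the control mean. The log2 fold change was 1.06 ± 0.32, with an edgeR p of 0.00664 before and 0.281 after adjustment. Tcf7, the transcription factor TCF1 of naive and memory T cells, had 5.07, 9.84 and 16.4 CPM against 4.57, 5.24 and 11.98 CPM in control kidneys, and a log2 fold change of 0.72 ± 0.30. Lef1, a related factor, had the smallest log2 fold change of the 26, 0.48 ± 0.27; 1208 of its 8788 exon bases lie opposite an antisense gene.

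**Figure D2:**
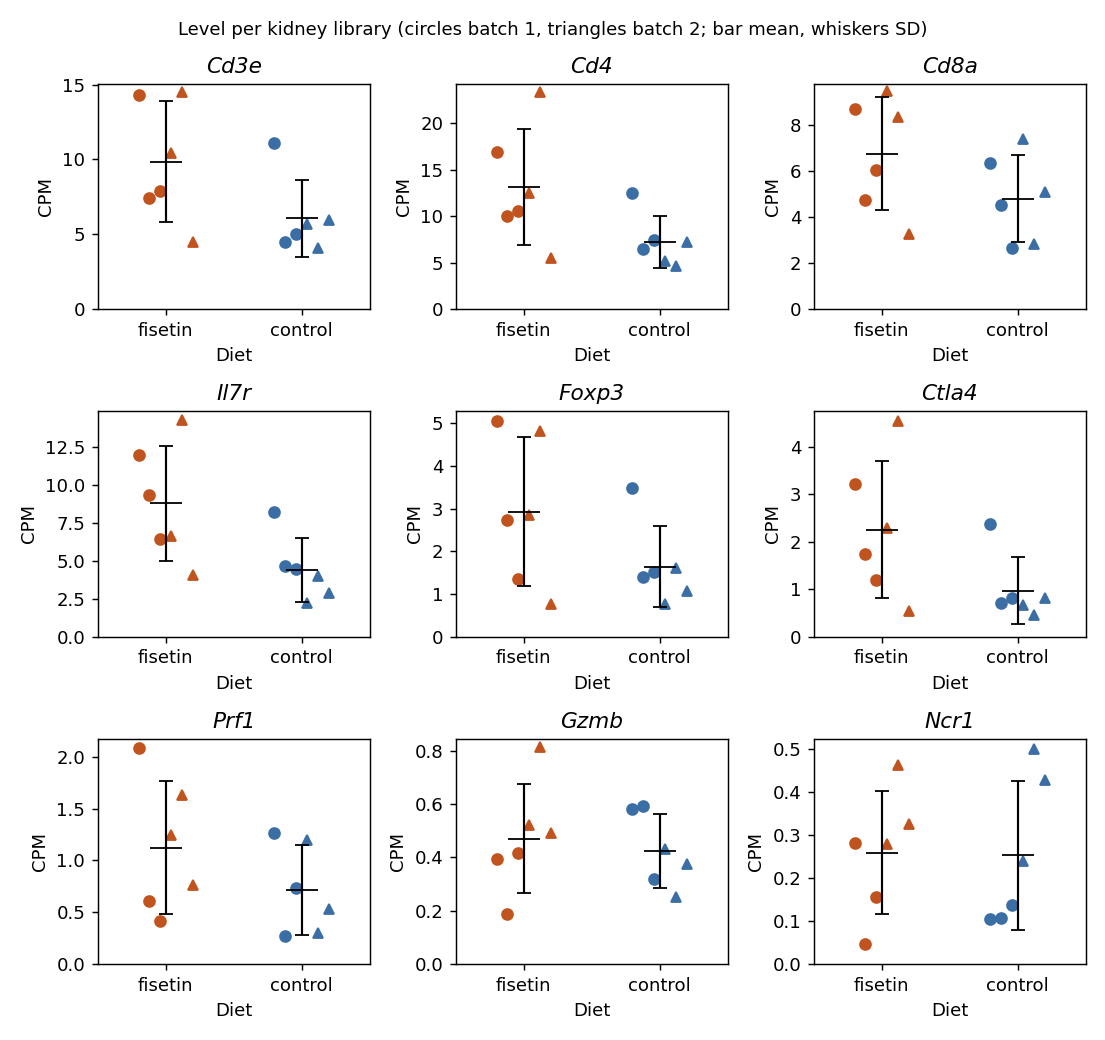
CPM of 9 genes in each kidney library, with fisetin left and control right, batch 1 as circles and batch 2 as triangles, and a bar and whiskers for the mean and SD of 6 libraries. One fisetin kidney lies near the control kidneys and one control kidney near the fisetin kidneys for Cd3e, Cd4, Il7r and Ctla4, while Gzmb and Ncr1 stay under 1 CPM in every kidney.

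Costimulatory and checkpoint receptors had log2 fold changes of 0.96 to 1.05. Icos, a costimulator of activated and follicular helper T cells, had 1.31, 3.63 and 7.67 CPM with fisetin (lowest, median, highest) and 1.02, 1.56 and 3.69 CPM with the control diet, a log2 fold change of 1.05 ± 0.43. Pdcd1, which encodes the inhibitory receptor PD-1, had 0.55, 2.72 and 5.63 CPM against 0.54, 0.96 and 3.43 CPM in control kidneys, with a log2 fold change of 0.96 ± 0.53 and an edgeR adjusted p of 0.391. Cd28, the main costimulatory receptor of T cells, had a log2 fold change of 0.97 ± 0.45. Between the highest and the lowest of the 12 kidneys, all 3 genes varied more than 6-fold, by 7.51-fold for Icos, 10.49-fold for Pdcd1 and 6.78-fold for Cd28.

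Foxp3 (X chromosome, 7573644 to 7595245), the lineage factor of regulatory T cells, had 0.76, 2.79 and 5.06 CPM with fisetin and 0.77, 1.45 and 3.48 CPM with the control diet, with means of 2.93 ± 1.75 and 1.64 ± 0.95 CPM (SD, n = 6 each). Its log2 fold change was 0.88 ± 0.45, with an edgeR adjusted p of 0.374, and its exons overlap those of Flicr on the same strand and of Ccdc22 and Ppp1r3f on the other. Ctla4, an inhibitory receptor of regulatory and activated T cells, had 0.55, 2.02 and 4.53 CPM with fisetin and 0.45, 0.75 and 2.37 CPM with the control diet. Its log2 fold change of 1.25 ± 0.51 was the largest of the 26, with an adjusted p of 0.314. The fisetin range of the ratio of Foxp3 to Cd3e, 0.171 to 0.369 with a median of 0.302, lay inside that of the control kidneys, 0.134 to 0.395 with a median of 0.305. The ratio of Ctla4 to Cd3e was 0.12 to 0.31 (median 0.22) with fisetin and 0.11 to 0.21 (median 0.14) with the control diet, and these ranges overlapped as well.

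Cytotoxic genes were a mixed set. Nkg7 had a log2 fold change of 0.61 ± 0.31. Prf1, which encodes the pore former perforin, had 0.42, 1.00 and 2.08 CPM with fisetin (lowest, median, highest) and 0.27, 0.63 and 1.27 CPM with the control diet, and a log2 fold change of 0.62 ± 0.47 with an edgeR adjusted p of 0.504. Gzmk, a granzyme of memory-like killer T cells, had a log2 fold change of 0.54 ± 0.58, the largest error of the 26, and was counted 0 times in control 2. The other granzymes of the group were near the floor of counting. Gzmb had 4 to 14 counts per library with fisetin and 5 to 11 with the control diet, with sums of 55 and 50 counts. Gzma had 2 to 11 counts with fisetin and 1 to 9 with the control diet. With the filter left off, their log2 fold changes by edgeR were 0.12 ± 0.35 for Gzmb and 0.31 ± 0.53 for Gzma.

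NK cell receptors were barely counted. Ncr1 had 1 to 8 counts per library in the fisetin kidneys and 2 to 10 in the control kidneys, with a sum of 30 counts in each diet. Klrb1c had 3 to 11 counts with fisetin, against 5 to 11 with the control diet, and sums of 40 and 46 counts. Without the filter, their log2 fold changes by edgeR were 0.06 ± 0.40 and -0.13 ± 0.38, each smaller than its error, and the interval around each is wide at these counts. The factors shared by NK cells and killer T cells were more abundant. Tbx21, which encodes T-bet, had 0.87, 2.41 and 4.12 CPM with fisetin and 0.64, 1.37 and 3.01 CPM with the control diet, a log2 fold change of 0.67 ± 0.43. Eomes had a log2 fold change of 0.93 ± 0.50 and the widest range of the tested genes counted in every kidney, 12.2-fold between the highest and lowest kidney.

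The spread between kidneys was the main feature of the group. The ratio of the highest to the lowest of the 12 kidneys had a median of 5.60 over the tested genes, and was 3.17 for the narrowest, Lat, against a median of 1.55 over all genes tested. The edgeR biological coefficient of variation is the estimated spread beyond counting error around the additive fit of batch and diet. It was 0.31 to 0.67 for the 26 genes with a median of 0.41. Each value lay above the median of 0.13 over all genes tested. Lowly counted genes have less precise estimates of this coefficient, and the ratio of highest to lowest also includes counting error. The genes compared were not matched to the 26 by level, so the part of low counts in the wider spread was not tested. The same kidneys stood at the ends for most genes. Fisetin 5 was the highest fisetin kidney for 17 of the 26 genes and fisetin 1 for 7, and fisetin 6 was the lowest fisetin kidney for 23. Control 1 was the highest control kidney for 24, and it exceeded the fisetin median for 24, while fisetin 6 was below the control median for 24. By the summed CPM of the 4 CD3 genes, control 1 ranked 3 and fisetin 6 ranked 11 among the 12 kidneys. For 0 of the 26 genes did every fisetin kidney exceed every control kidney, where 0.47% of all genes tested had such a gap.

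**Figure D3:**
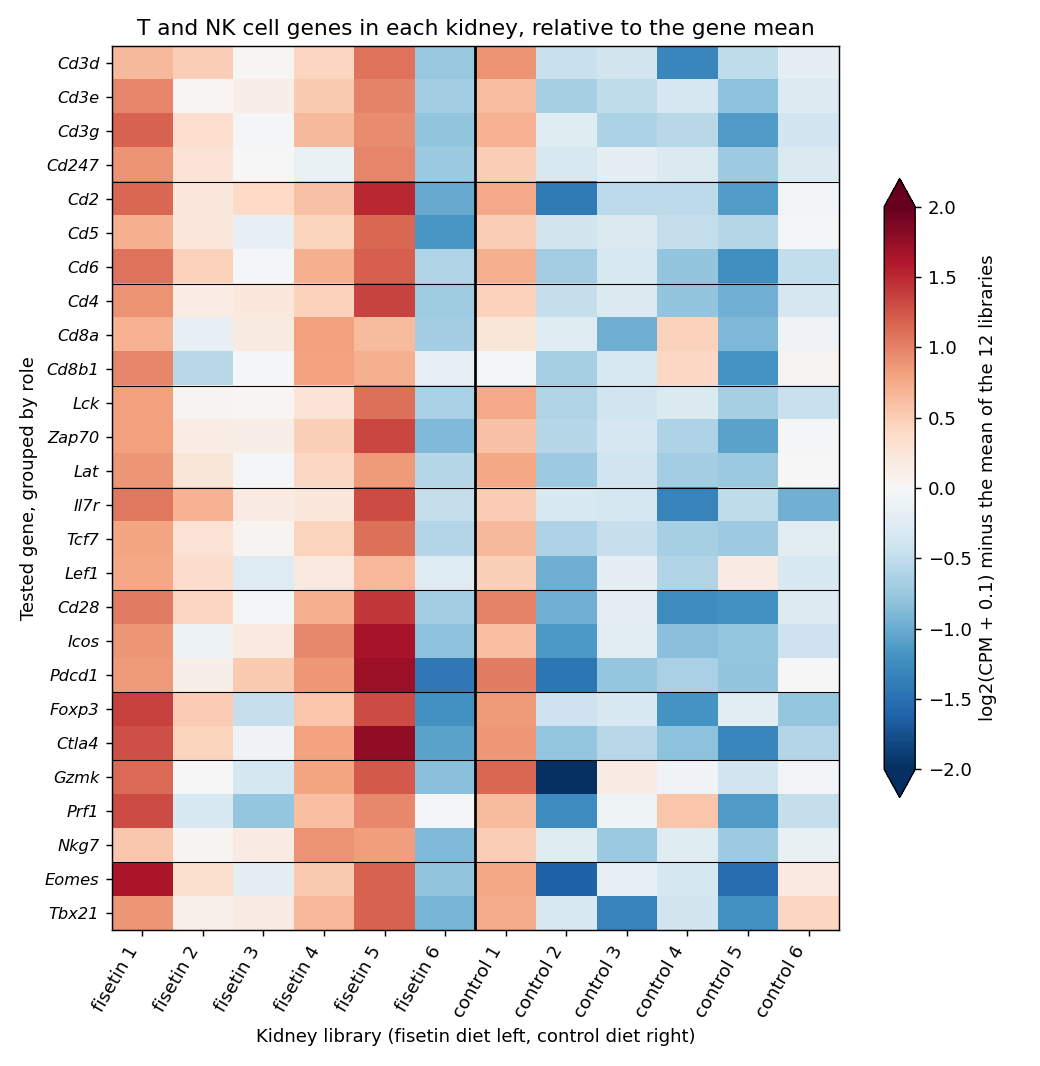
Each row is a tested gene and each column a kidney library, fisetin left of the line and control right of it, coloured by log2(CPM + 0.1) minus the gene's mean over the 12 libraries. Columns differ as a whole, with fisetin 1, fisetin 5 and control 1 high, and fisetin 6 low, for most genes; values beyond 2 in either direction share the end colours.

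Single kidneys moved the counts. The 9 genes with an unadjusted p under 0.05 were 22 without fisetin 6 (13.3% of all genes then had such a p on the higher side) and 21 without control 1 (11% of all genes). They were 12 without fisetin 3 (9.78%) and 10 without fisetin 2 (6.81%). Without fisetin 1 they were 3 (5.3% of all genes), as they were without fisetin 4 (7.3%), fisetin 5 (4.8%) or control 2 (5.47%). They were 4 without control 3 (6.48%) or control 4 (5.53%), 2 without control 5 (8.79%) and 5 without control 6 (5.8%). All 26 log2 fold changes stayed positive in each of these 12 fits, with a median between 0.51 (without fisetin 5) and 1.01 (without control 1), and 0 of the 26 passed after adjustment, where the smallest edgeR adjusted p was 0.0828, for Il7r without fisetin 6. Of all genes, 0.388% passed without fisetin 6, 0.00555% without fisetin 4 and 0% in the other 10 fits. limma-voom with sample quality weights, which trusts deviating libraries less, called 9 of the 26 (34.6%), but it called 13.9% of all genes tested. It gave 22 of the 26 an unadjusted p under 0.05, against 17% of all genes on the higher side. Such a p was reached by 15 of the 26 on the log2(TPM + 1) scale (5.84% of all genes) and by 14 on the log2(TPM + 0.1) scale (5.64%). The 9 called by limma-voom were Il7r, Cd6, Tcf7, Ctla4, Cd28, Cd4, Cd3g, Cd3d and Lef1, with limma-voom adjusted p from 0.021 to 0.05.

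Both batches held the direction, with a larger median in the second. In batch 1 the log2 fold changes of the 26 genes were 0.19 to 0.88 with a median of 0.49, and 0 had an unadjusted p under 0.05 by edgeR (3.82% of all genes did on the higher side) or an adjusted one (0.00553% in either direction). In batch 2 they were 0.48 to 1.93 with a median of 1.02 over the 25 genes tested, of which 8 had such a p, against 3.28% of all genes. Of the 25 genes tested in both batches, 24 had the larger value in batch 2. These genes share their kidneys, so the 24 are not separate observations. Of the kidneys at the ends, fisetin 1 and control 1 were in batch 1, and fisetin 5 and fisetin 6 in batch 2. The test of the difference itself, the interaction of diet and batch, gave 0 of the 26 genes an unadjusted p under 0.05 (2.1% of all genes tested) and 0 an adjusted one (0% of all genes tested). Batch 2 against batch 1 likewise gave 0 of the 26 with an unadjusted p under 0.05 (3.38% of all genes tested), and 0 with an adjusted one (0%), with a median log2 difference of -0.20.

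**Figure D4:**
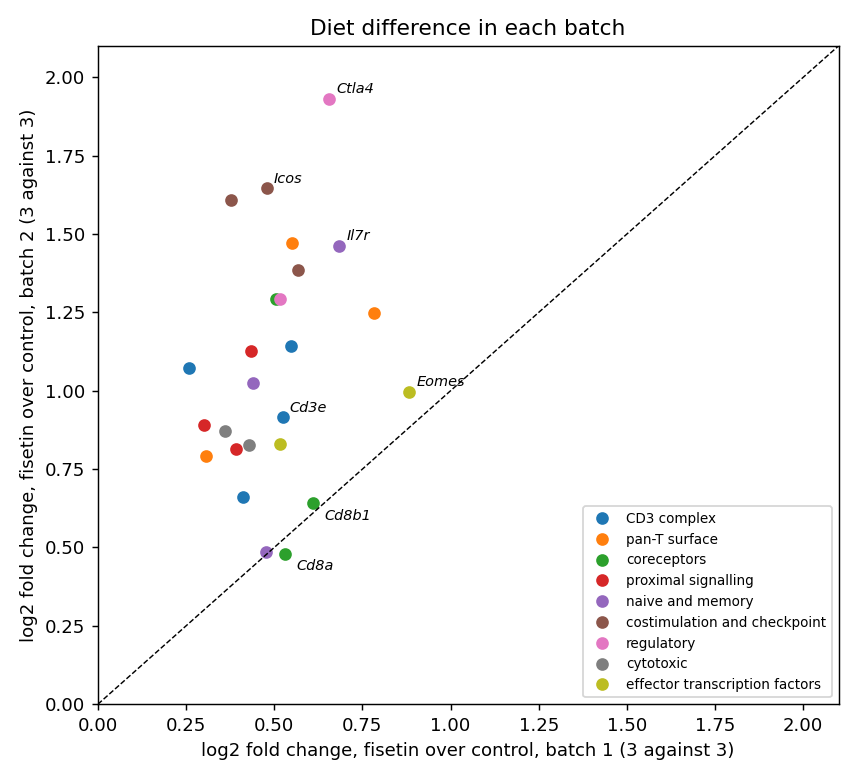
Log2 fold changes, fisetin over control, within batch 1 (horizontal) and within batch 2 (vertical), 3 against 3 libraries each, for the 25 genes tested in both batches, with the dashed line marking equal values. Points lie above the line for 24 genes, and Cd8a lies below it at 0.53 in batch 1 and 0.48 in batch 2.

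Another 64 genes of T and NK cells were described by role, in lists also chosen with earlier results of these data known. Of the 64 genes, 56 were tested. Of these, 54 had positive and 2 negative log2 fold changes, with a median of 0.58, where 50.2% of all genes tested were positive. After adjustment 0 passed in edgeR (0% of all genes) or DESeq2 (0.954% of all genes, with 6 of these given no adjusted p). An edgeR p under 0.05 was reached by 27 on the higher side (48.2%, against 8.23% of all genes tested) and 1 on the lower side (6.34% of all genes). Given how the lists were chosen and that the genes share their kidneys, these shares are descriptive only. The T cell receptor constant genes Trac and Trbc2, which encode parts of the antigen receptor, had log2 fold changes of 0.89 ± 0.33 and 0.73 ± 0.34, with 3 of 3 tested positive. Receptor signalling genes were positive in 14 of 14 tested, among them the phosphatase-family gene Ubash3a (0.86 ± 0.28) and Sh2d1a, which encodes the adaptor SAP (1.51 ± 0.49). Sh2d1a reached the filter's level in 5 fisetin libraries and 1 control library, with 9 to 33 counts with fisetin and 2 to 22 with the control diet. It thus passed the filter mostly through the diet in which it was higher. The same holds for Klrc1, an NK receptor gene, also with 5 and 1 libraries. Sh2d1a and Klrc1 are included in the counts of positive genes given here. All 8 homing genes were positive, among them Cxcr6, a receptor of tissue-resident T cells (0.54 ± 0.16). Activation and inhibition receptors were positive in 13 of 13, with Cd226 at 0.58 ± 0.18 and Tnfrsf4, which encodes the costimulator OX40, at 0.95 ± 0.31. Effector products were positive in 4 of 4 tested, with Cst7, a cystatin of granules, at 1.17 ± 0.51 and Ctsw, a cathepsin of cytotoxic cells, at 0.44 ± 0.21. Of those not tested, Xcl1 and Ifng had summed counts of 31 and 29 with fisetin, against 16 and 15. Gzmm had 30 with fisetin, against 38 with the control diet. Of NK receptors and adaptors, 7 of 7 tested were positive, with Klrd1 at 0.64 ± 0.23 and Klrk1, which encodes NKG2D, at 0.43 ± 0.14. Among the 7 were the adaptor genes Fcer1g (0.31 ± 0.16) and Tyrobp (0.25 ± 0.16), which other immune cells also carry. Their median levels with fisetin were 26.7 and 33.5 CPM. In bulk tissue the cells that made these messages cannot be told apart. The NK receptor genes Klre1 and Klra8 were not tested. Their summed counts were 19 and 5 with fisetin, and 23 and 6 with the control diet. T cell transcription factors were split 5 to 2, with Tox at 0.55 ± 0.22 and Gata3, which collecting duct cells also express, at -0.28 ± 0.14. The smallest edgeR adjusted p among the 56 was 0.276.

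Markers of several other immune cells had the same kidneys at their ends. The summed level of 8 B cell markers was 13.7 to 130 CPM in fisetin kidneys and 6.93 to 72.8 CPM in control kidneys. All 8 had positive log2 fold changes, with a median of 1.14 and 0 unadjusted p under 0.05 (8.23% of all genes tested on the higher side). For 5 plasma cell markers the sums were 166 to 1087 CPM with fisetin and 193 to 708 CPM with the control diet, and 3 of 4 tested were positive, with a median of 0.75 and 0 such p. Macrophage and monocyte markers summed to 358 to 779 CPM with fisetin and 379 to 647 CPM with the control diet, with 10 of 10 positive, a median log2 fold change of 0.39 and 1 unadjusted p under 0.05, and 7 dendritic cell markers to 69.7 to 108 CPM and 64.0 to 91.7 CPM, with 7 of 7 positive, a median of 0.36 and 5 such p. The sums of 4 genes common to leukocytes were 204 to 551 CPM with fisetin and 190 to 391 CPM with the control diet, with 4 of 4 positive and 3 such p. Fisetin 5 was highest and fisetin 6 lowest of the fisetin kidneys in each of these 5 sums, and control 1 was the highest control kidney. Of 6 neutrophil markers, which summed to 3.87 to 8.42 CPM with fisetin and 4.28 to 7.52 CPM with the control diet, Csf3r was tested and positive, and Mpo was at 0 in every library. The 5 mast cell and basophil markers summed to 23.9 to 29.8 CPM with fisetin and 22.6 to 29.3 CPM with the control diet. Nearly all of that was Kit, a receptor that other kidney cells also carry, with a log2 fold change of 0.03, and Mcpt8 was at 0 in every library. Innate lymphoid markers, which include Gata3, summed to 49.5 to 67.6 CPM with fisetin and 65.5 to 76.6 CPM with the control diet, and 1 of 4 tested was positive. All 5 proximal tubule markers had negative log2 fold changes, with a median of -0.36, and fisetin 6 had their highest and fisetin 5 their lowest sum among fisetin kidneys. The part of these other cell types in the T and NK cell differences was not tested.

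**Figure D5:**
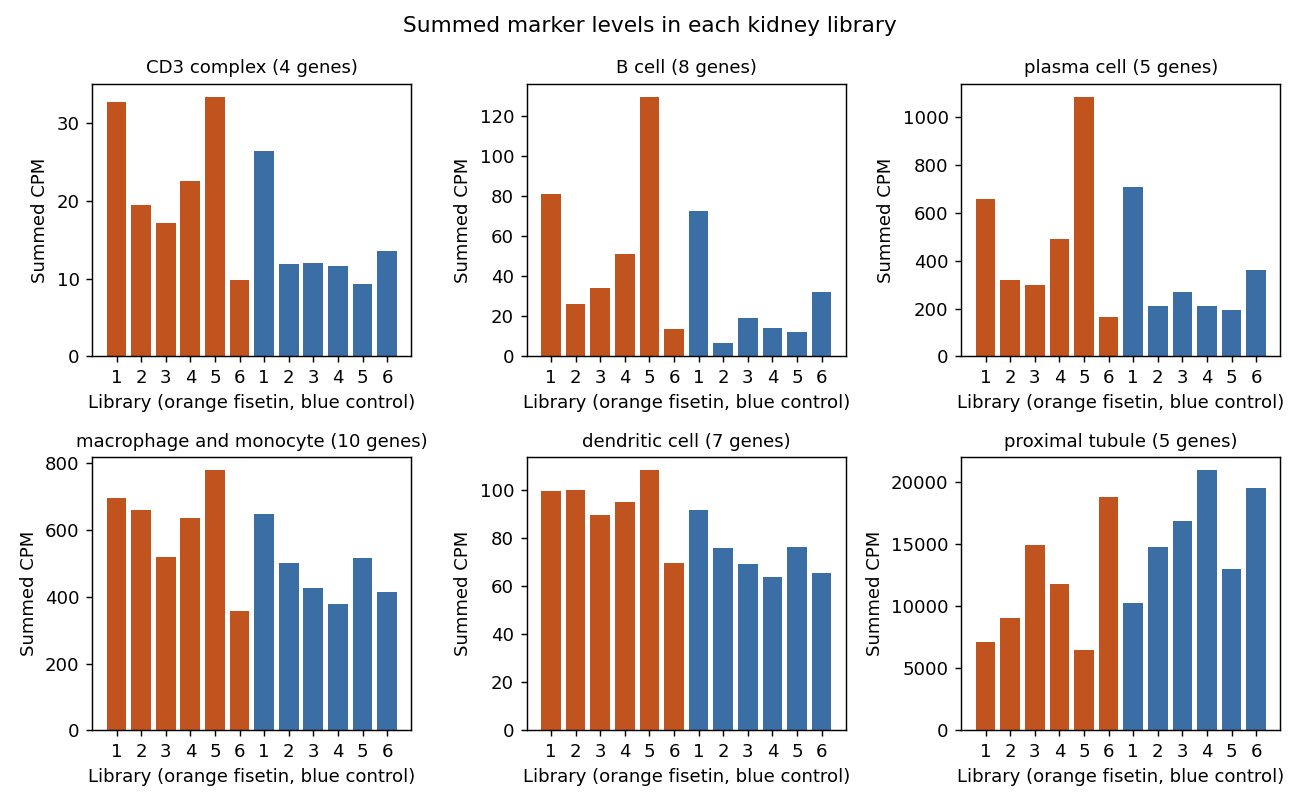
Bars give the summed CPM of the CD3 genes and of 5 marker lists of other cells in each library, numbered 1 to 6 within fisetin (orange, left) and control (blue, right). Fisetin 5 has the highest bar and fisetin 6 the lowest fisetin bar in every immune panel, and the order is turned round for the proximal tubule.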

How the data were processed

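Kidney messenger RNA of 12 libraries was analysed, grouped by diet from the sample titles, with batch from the labels' batch field and numbers within a diet in accession order, which pair nothing. Per the labels' protocols, a KAPA mRNA HyperPrep kit was used. Tools named in the submitters' processing notes are STAR, fastp, DESeq2 and featureCounts, with the builds GRCm38 and mm10; their versions, the annotation and the strand setting are not stated there. Per the file headers, the authors deposited estimated counts, TPM and FPKM; FPKM was not used here. Estimated counts (13.9% of the deposited values above 0 not whole, tolerance 1e-06) were rounded. In 66 library pairs the mean squared difference was at least 7.00 times counting noise.

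Genes passing filterByExpr (minimum count 10) were scaled by TMM and tested with batch and diet in edgeR 4.0.16 (R 4.3.3; glmQLFit, robust), two-sided, with Benjamini-Hochberg adjustment at 0.05. CPM uses the same effective library sizes. The edgeR test reports no SE. Each SE of an edgeR log2 fold change was derived as the absolute log2 fold change divided by the square root of the F statistic. Alternatives were DESeq2 1.42.0, limma 3.58.1 (voom with quality weights, and log2(TPM + 1) or log2(TPM + 0.1) of the deposited TPM), other scalings, other filters, no batch term, single batches and each library left out. The fits were tested on simulated counts with known changes. Those counts were drawn separately for each gene, so genes that move together between kidneys were not covered. Coordinates are from GENCODE M21 (GRCm38) and promoter windows from RefSeq. The 30 genes and all lists were chosen with earlier results of these data known. Genes given in full are 12 picked by role and the 6 others with the smallest p, and for each further list the 2 genes with the smallest p, some of which are not reported here; Gata3, Klrc1, Kit, Csf3r and the genes of voom's calls were named after their values were seen.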

Additional observations from a re-analysis of the deposited data

Results flagged for a closer look

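A library was marked where its gap to the nearest other library of its diet exceeded Dixon's 95% limit for 6 values. With normally distributed values chance alone does so in about 5% of groups. The CPM values were not log-transformed, so that share may not hold here. Among 102 groups screened, 15 were marked, 12 of them levels of single T cell genes, and 14 of the 15 were the highest control kidney, control 1. Since these genes move together, the marks are not separate observations.

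Of the CD3 genes, control 1 stood at 5.22 CPM for Cd3d, 11.1 CPM for Cd3e, 5.96 CPM for Cd3g and 4.12 CPM for Cd247, while the next control kidneys were at 2.41, 5.94, 3.06 and 2.56 CPM. It had 7.49 CPM of Cd6 and 12.5 CPM of Cd4, against 3.56 and 7.40 CPM in the next control kidneys. For the signalling genes it had 12.6 CPM of Lck and 7.65 CPM of Lat, against 6.01 and 4.45 CPM. Its Tcf7 level was 11.98 CPM and its Cd28 level 7.97 CPM, against 6.48 and 3.47 CPM. Of the regulatory genes it had 3.48 CPM of Foxp3 and 2.37 CPM of Ctla4, against 1.61 and 0.82 CPM. Its summed plasma cell markers were 708 CPM and its summed leukocyte markers 391 CPM, against 360 and 237 CPM. In fisetin 6, summed platelet and red cell markers were 125 CPM, against 55.3 CPM in the next fisetin kidney.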

How the results depend on the processing

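All 26 tested genes kept a positive log2 fold change under each alternative that tested them (25 in batch 2 alone, 24 at a mean of at least 1 CPM), and none passed an adjusted p of 0.05 except in limma-voom. Over all genes, the count of 0 was 154 by DESeq2, 2492 by limma-voom with quality weights and 1 in batch 1 alone, and 0 to 70 without single libraries (70 without fisetin 6). limma-voom called 9 of the 26 genes and 29 of the 56 further T and NK cell genes (13.9% of all genes tested), against 0 by edgeR. The 9 genes with an unadjusted p under 0.05 were 22 by limma-voom (17% of all genes on the higher side), 0 in batch 1 alone (3.82%), 15 on log2(TPM + 1) (5.84%), 14 on log2(TPM + 0.1) (5.64%), and 2 to 22 without single libraries. For the further genes the 28 with such a p in either direction were 48 by limma-voom and 3 in batch 1 alone. They were 12 to 44 without single libraries. Over all genes, edgeR with all 12 libraries gave such a p to 8.23% on the higher and 6.34% on the lower side. The share on the higher side was 17% by limma-voom, 3.82% in batch 1 alone and 4.8% to 13.3% without single libraries. Single batches and left-out libraries hold fewer samples; the cause of the other differences was not tested. Leaving out a library kept the median log2 fold change of the 26 genes between 0.51 and 1.01. Total count scaling moved the median of all genes by 0.0444 (log2). At 1 to 14 counts a library, Gzma, Gzmb, Ncr1 and Klrb1c limit what can be said of NK and killer cells. No paired analysis was possible because the labels number no replicates.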
